A study of Mus musculus with 415 samples.

Results

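The Rn45s locus is a copy of the ribosomal RNA gene on mouse chromosome 17. Its members were chosen as the regions of the deposited accessibility table that overlap a window of 15 kb around this copy on build mm9. This rule found 2 of the 23180 regions. The first spans 39979995 to 39983587 (3592 bp) and the second 39984380 to 39985695 (1315 bp), and 793 bp separate them. The locus was picked because its signal was known to be high, so its levels are given as a description and no test was made on them. The name Rn45s comes with the window. The deposited table names no genes, and the RefSeq gene table used here, on build GRCm38.p6, lists no Rn45s. It lists Rn18s-rs5, a pseudogene entry on chromosome 17 with the synonyms Gm42418 and Rnr17. The table was not matched by position because the builds differ, so neither the name nor an exon or promoter could be checked against the data, and no sequence is printed.

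Rn45s encodes the precursor RNA that RNA polymerase I transcribes in the nucleolus and that is cut into the 18S, 5.8S and 28S RNAs of the ribosome. Mammalian genomes carry many near-identical copies in tandem arrays, of which some are actively transcribed and others are packed in silent chromatin. Growing cells such as embryonic stem cells rely on high output from these genes. A genome assembly holds few of the copies, so short reads from any of them can be placed on a copy that is present. Signal at such a copy can reflect how many copies a cell holds as well as how open they are, and these cannot be told apart in this table. How reads with several matching places were treated is not given in the sources used here, so the values belong to the ribosomal RNA genes or to this 1 copy only with that uncertainty.

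The assay was single-cell ATAC-seq: Tn5 transposase inserts sequencing adapters into open DNA, so that fragments mark accessible places. The cells were R1 mouse embryonic stem cells formed into embryoid bodies by the hanging drop method over 48 hours and then exposed to retinoic acid, labelled as 0.5 mM, for 4 days. Cells were isolated and tagmented on the Fluidigm C1 system, and 13 more PCR cycles completed the libraries. Every sample is a single cell of this 1 condition, the labels name no separate cultures or chips, and there is no untreated group. The cells were therefore treated as parts of 1 sample, not as replicates, and no p-value was computed. Marker genes of the labelled cell type could not be read, because the table has no gene names on mm9.

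The table holds whole numbers that read as aligned bases summed over reads of 74 bases. A value was divided by the bases of 1 pair of such reads, and the result is called fragments. A cell's total over the table ran from 791 to 25069 fragments with a median of 4529. No columns of the table were identical. Intervals are exact (Clopper-Pearson, 95%) and cover the counting of cells only.

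Nearly all cells held signal at the locus, and the amount differed widely between them. Signal in at least 1 of the 2 regions was found in 99.04% of the cells, and 4 cells had none. It was present in both regions in 87.5% of cells, only in the first in 43 cells and only in the second in 5. The first region held signal in 97.8% of cells (interval 95.9% to 99.004%) and the second in 88.7% (85.2% to 91.6%). Of all regions, 0.0475% held signal in at least 85% of cells and 1.95% in at least 50%, and since the locus was chosen for this property nothing is read from it. The nearest regions of the table outside the window lay 2.57 Mb before the first member, from 37407085 to 37407728, and 1.03 Mb after the second, from 41017027 to 41017704. They held signal in 8.67% and 9.16% of cells, at means of 0.0863 and 0.0959 fragments per cell, so the 2 members stand alone on that stretch of chromosome 17.

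Per cell, the first region held from 0 to 369.8 fragments, with a median of 12.6 and quartiles of 4.66 and 42.3. The second held from 0 to 136.1, with a median of 4.41 and quartiles of 1.32 and 16.9. The longer region therefore had more signal, and per length the regions were close. The mean level was 10.2 fragments per kb in the first and 10.8 in the second, where the median region of the table had 0.228. By mean level per kb they were at rank 9 and 8 of all regions, and by mean fragments at rank 3 and 4.

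Both regions together held a median of 15.9 fragments per cell, with a mean of 50.8, quartiles of 6.68 and 58.6 and values between 0 and 492.8. As a share of the cell's total signal the median was 0.384%, the quartiles 0.145% and 1.37%, and the highest value 21.6%. The distribution is far from even. The 42 cells with the most locus fragments, 10.1% of the cells, held 48.1% of all locus fragments and 15.2% of all signal. The 49.9% of cells with the fewest held 6.90% of the locus fragments. Over all cells the locus made up 0.914% of the table's signal and 17.7% of that on chromosome 17, which has 980 regions. In a single cell it made up a median of 8.298% of the chromosome's signal and at most 89.9%.

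**Figure D1:**
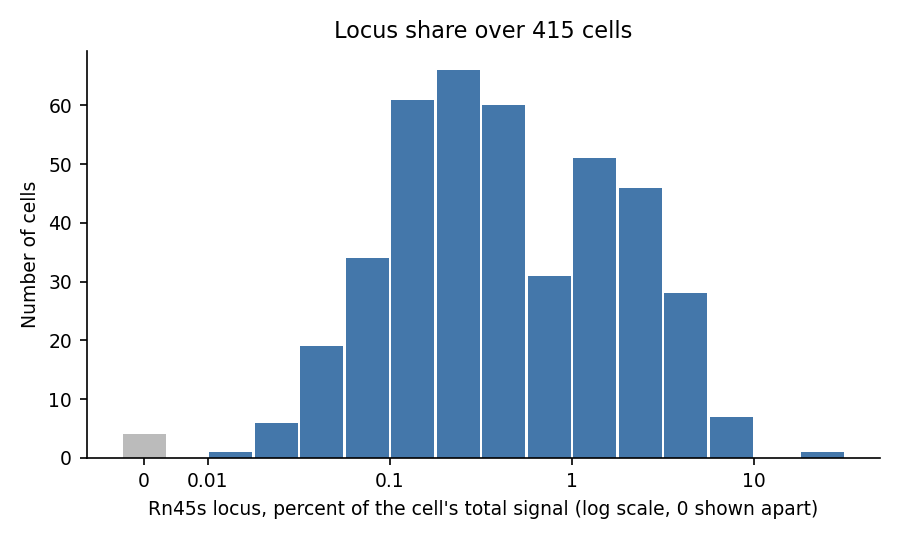
Number of cells (vertical axis) by the percent of a cell's total signal that lies in the Rn45s locus (horizontal axis, log scale in equal steps, with the 4 cells at 0 in grey). The counts peak with 66 cells between 0.178% and 0.316%, drop to 31 cells between 0.562% and 1%, and rise again to 51 cells between 1% and 1.78%.

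On a log scale the share had 2 peaks. In equal steps, 61, 66 and 60 cells lay between 0.1% and 0.562%, only 31 lay between 0.562% and 1%, and 51, 46 and 28 lay in the 3 steps from 1% to 5.62%. In all, 32.05% of the cells had a share over 1%, 11 cells had over 5%, and 64 cells had under 0.1%. The dip depends on the steps drawn and was not tested.

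The 5 highest shares came from cells below the median depth. The cell with the title scATAC-seq_RA_D4_301 held 492.8 locus fragments of 2279 in total, a share of 21.6%. It was followed by scATAC-seq_RA_D4_338 with 393.6 of 4456 (8.83%), scATAC-seq_RA_D4_24 with 153.4 of 2097 (7.31%), scATAC-seq_RA_D4_203 with 80.6 of 1155 (6.98%) and scATAC-seq_RA_D4_258 with 166.04 of 2518 (6.59%). The first of them stands well above the rest, and the values below it follow closely on each other.

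At the other end, 4 cells had no locus signal. Those with the title numbers 47, 55, 88 and 98 had totals of 6407, 4762, 1630 and 1476 fragments, and a count of 0 allows shares of up to 0.0468%, 0.063%, 0.184% and 0.203% in them (3 fragments of the total, counting error only). The lowest share above 0 was in scATAC-seq_RA_D4_295, with 2 locus fragments of 15152 (0.0132%). In scATAC-seq_RA_D4_339 it was 2.12 of 9699 (0.0219%). Low values were thus found in deep cells too, while the deepest cell, with 25069 fragments, held 416.4 locus fragments.

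The locus share spread widely over cells. The ratio of the 90th to the 10th percentile of the share was 43.9. The same ratio was 16.4 for the 3 chromosome 2 regions, which lie between 98502396 and 98507478, 4.10 for the chromosome 1 region from 24618733 to 24620285, and 5.81 for the depth in the rest of the table. The coefficient of variation of the locus share was 1.63, and 1.62 after the part due to Poisson counting of fragments was removed. Corrected in the same way it was 1.29 for the chromosome 2 regions and 0.611 for the chromosome 1 region. The locus coefficient includes the cell with a share of 21.6%, where the next highest share was 8.83%. This coefficient was not recomputed without that cell, so how far it rests on 1 cell was not tested. Over 437 other regions that held signal in at least 50% of cells the corrected value had a median of 0.497 and reached at most 1.57. These leave out the 14 regions with a median of at least 2.5 fragments in cells with signal, among them both members and the regions of the rule. Fragments carry no molecular identifiers and the treatment of PCR duplicates is not given, and the part of duplicates in this spread was not tested.

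The 2 regions of the locus were high in the same cells and low in the same cells for the most part. As shares of the rest of the table, meaning the fragments outside the locus and outside the chromosome 1 and 2 regions, their Spearman correlation over all cells was 0.834, and it was 0.775, 0.802, 0.855 and 0.927 in 4 sets of cells of equal number, ordered from shallow to deep. The points share library depth and the denominator, and these correlations are descriptions without a p. The second region held 27.9% of the locus fragments over all cells. Among the 28.4% of cells with at least 50 locus fragments, its part of them had a median of 27.1%, quartiles of 22.99% and 31.9%, and extremes of 11.8% and 72.3%. The division between the 2 regions was therefore similar in most of these cells. Its chi-square against 1 common division was 3.36 per degree of freedom in them, 2.61 in the 44.3% of cells with at least 20 locus fragments and 2.16 in the 81.4% with at least 5. For the chromosome 2 regions that begin at 98502396 and 98506406 it was 1.57, 1.41 and 1.33 in the cells with as many fragments there. Independent whole molecules would give about 1, but the values here are not whole counts and have no molecular identifiers, and the part of duplicates in the excess was not tested. Of the cells with at least 50 locus fragments, scATAC-seq_RA_D4_97 had the largest part in the second region, with 21.75 fragments in the first region and 56.9 in the second. Of the 5 cells with signal only in the second region, scATAC-seq_RA_D4_194 had the most, 13.4 fragments.

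**Figure D2:**
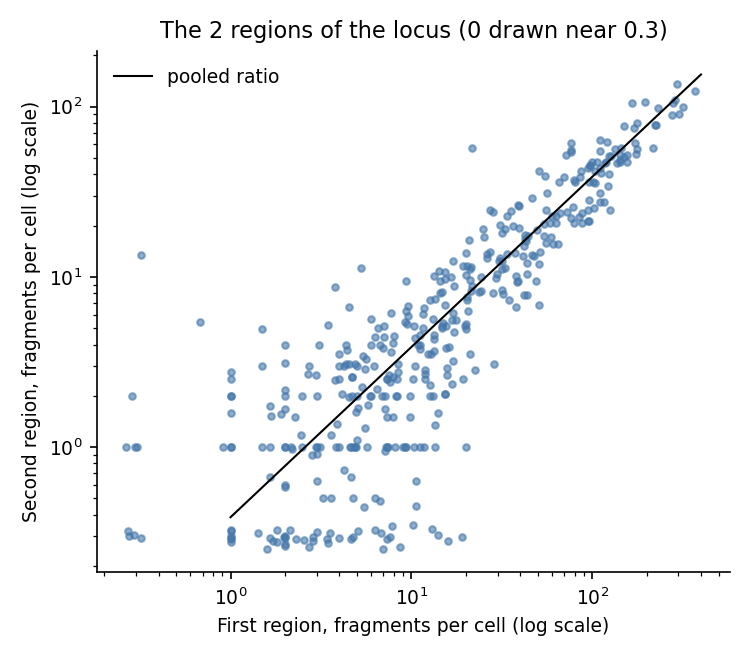
Fragments per cell in the first region (horizontal axis) and the second region (vertical axis) of the locus, both on log scales, 1 point per cell, with values of 0 drawn near 0.3; the line is the pooled ratio. Cells with many fragments lie close along the line, and scATAC-seq_RA_D4_97 lies above it at 21.75 and 56.9 fragments.

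Over all cells, locus signal rose only weakly with how deeply a cell was sampled. With 4 clusters of cells the relation was closer within clusters 1, 2 and 3, and in cluster 4 it stayed within 0.1 of the value over all cells. With 3 clusters it was closer only within cluster 3. The Spearman correlation between locus fragments and fragments in the rest of the table was 0.255 over all cells, and Pearson's r of the logarithms was 0.273 over the cells with signal. The slope of that log-log relation was 0.581, where locus signal in proportion to depth would give 1. For the chromosome 1 region the Spearman correlation with depth was 0.5997 and the slope 0.583, and for the chromosome 2 regions 0.281 and 0.486. Within 4 clusters of cells made on regions of other chromosomes, whose locus levels are given further on, the Spearman correlation of locus fragments with depth was 0.545, 0.467, 0.481 and 0.3003. Within 3 clusters made in the same way it was 0.247, 0.174 and 0.406.

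The same 4 sets by depth had a median locus level of 12.1, 11.6, 15.8 and 31.7 fragments from shallow to deep. Their median share of the total was 0.549%, 0.336%, 0.280% and 0.319%. The median share was highest in the shallowest cells and about level over the other sets. The upper part of the values fell with depth, with upper quartiles of 1.88%, 1.68%, 1.12% and 1.13%. With all cells of a set pooled, the locus held 1.44%, 1.32%, 0.802% and 0.737% of the signal. Within each set the values ranged far more than between them, with quartiles of 0.245% and 1.88% in the shallowest and 0.111% and 1.13% in the deepest. Cells with a share over 1% made up 38.5% (29.1% to 48.5%), 33.7% (24.7% to 43.6%), 28.2% (19.7% to 37.9%) and 27.9% (19.5% to 37.5%) of these sets, and these intervals overlap. After each cell had been thinned to 1500 fragments, which left out 12 shallower cells, 91.3% of the others held locus signal, at a median of 5 fragments and quartiles of 2 and 18.

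**Figure D3:**
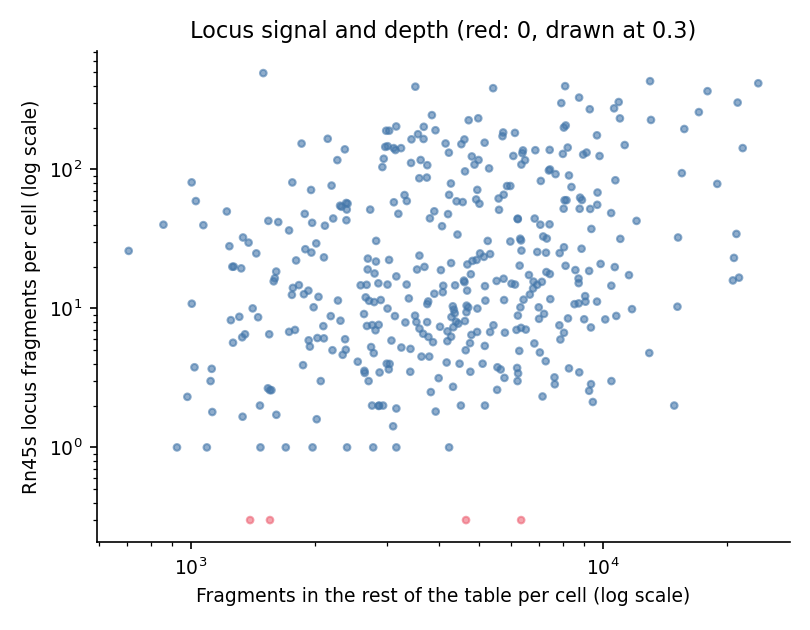
Locus fragments per cell (vertical axis) against fragments in the rest of the table (horizontal axis), both on log scales, 1 point per cell, with the 4 cells without locus signal in red at 0.3. Cells of similar depth differ widely along the vertical axis, and the Spearman correlation over cells is 0.255.

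Locus signal went together with the chromosome 2 regions and not with the chromosome 1 region. Both belong, with the locus, to the regions of highest signal in the table. The chromosome 1 region held a median of 96.6 fragments per cell and the 3 chromosome 2 regions together 58.5. As shares of the rest of the table, the locus and the chromosome 2 regions had a Spearman correlation of 0.698 over all cells (Pearson's r of the logarithms 0.682). Taken singly, the chromosome 2 regions from 98502396 to 98503114, from 98505202 to 98505368 and from 98506406 to 98507478 gave 0.658, 0.645 and 0.687. With the chromosome 1 region the value was -0.141, and between the chromosome 1 and chromosome 2 regions it was -0.0157.

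In the 4 sets by depth the correlation with chromosome 2 was 0.599, 0.690, 0.729 and 0.673 from shallow to deep. It was lower within the 4 clusters than over all cells, at 0.430, 0.639, 0.448 and 0.585, and it was 0.700, 0.695 and 0.525 within the 3. With the chromosome 1 region the values in the 4 sets by depth were -0.489, -0.202, -0.0355 and -0.313. Within the 4 clusters they were -0.408, -0.173, -0.133 and 0.0540, and within the 3 they were -0.174, 0.0189 and -0.184. Single cells show that the loci can also part. The cell scATAC-seq_RA_D4_401 had a locus share of 5.16% with 0.680% in the chromosome 2 regions, and scATAC-seq_RA_D4_7 had 0.513% at the locus with 24.6% on chromosome 2. The cell highest for the locus, scATAC-seq_RA_D4_301, had 9.64% on chromosome 2 and 2.94% on chromosome 1.

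**Figure D4:**
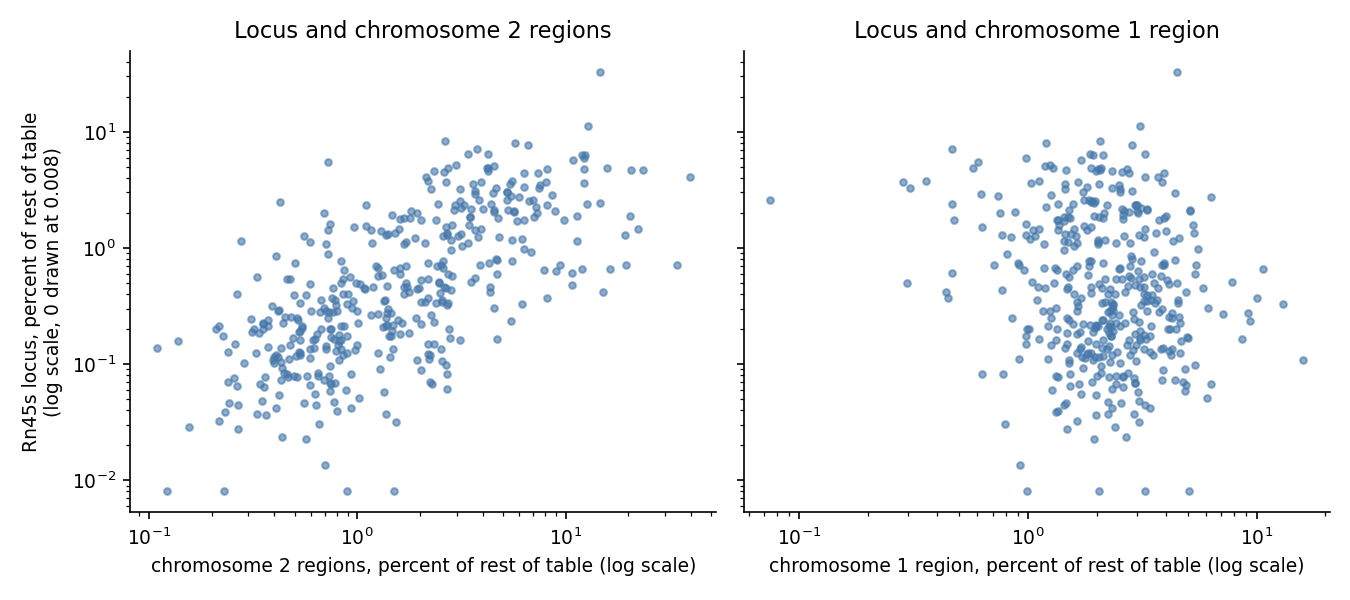
Locus fragments as a percent of the rest of the table (vertical axis) against those of the 3 chromosome 2 regions (left) and of the chromosome 1 region (right), all on log scales, 1 point per cell, with 0 drawn at 0.008. The left cloud rises, with a Spearman correlation of 0.698, and the right cloud shows no rise, with -0.141.

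The likeness reached further regions, but few. Of 449 regions with signal in at least 50% of cells, 2.45% had a Spearman correlation of at least 0.4 with the locus share, which is 11 regions, and the median over all 449 was -0.0390. Besides the 3 chromosome 2 regions, the 5 most alike lay on chromosome 3 from 5860383 to 5860771 (0.674), chromosome 6 from 103599085 to 103599283 (0.656), chromosome 12 from 3109872 to 3110098 (0.655), and chromosome 9 from 3017453 to 3026406 (0.603) and from 35112804 to 35113176 (0.592). They lie on 4 chromosomes and on none near the locus. Their signal was present in 54.5%, 93.7%, 93.01%, 89.4% and 92.8% of cells. What sequence they hold was not read, since no genome sequence on mm9 was used here.

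Likeness was more frequent among the regions of high signal, but several of them lacked it. In all, 14 regions, or 0.0604% of the table, reached a median level of 2.5 fragments over the cells with signal, and both members are among them. Of the other 12, 7 reached 0.4 and the other 5 lay between -0.141 and 0.0141. These 5 are the chromosome 1 region, a chromosome 2 region outside the window from 22444044 to 22445731 (-0.113), and regions on chromosomes 11 (-0.0789), 16 (0.0141) and 18 (-0.117). The 437 regions outside the high-signal ones had a median of -0.0393, and 4 of them reached 0.4. Their shares had a median coefficient of variation of 1.34, and of 0.497 once the part due to Poisson counting was removed. The part of this counting error in their lower correlations was not tested.

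The rest of chromosome 17 did not follow the locus. With all high-signal regions left out, the Spearman correlation between the locus share and the share of signal on the rest of chromosome 17 was -0.0448. Over the 19 autosomes and X it ran from -0.119 on chromosome 2 to 0.249 on chromosome 8, and all of these are weak. Regions alike to the locus but not of high signal were not left out. Among them are chromosome 9 regions that begin at 3000065 (0.542), 3005535 (0.488) and 3028775 (0.512), and chromosome 9 had 0.163. Chromosome 8 also holds alike regions, given further on for deeper cells. The part of such regions in these values was not tested. The share of the rest of the signal in the 437 widely open regions had a correlation of 0.136 with the locus share, and fragments per open region had -0.107.

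Groups of cells with different accessibility elsewhere differed in locus share. Cells with at least 1000 fragments, which leaves out 1 cell, were clustered on open and closed regions without chromosomes 1, 2, 17 and X, so that neither the locus nor the other loci of the rule took part. With 3 clusters, the median locus share was 0.483% in cluster 1 (46.9% of the cells, quartiles 0.158% and 1.91%), 0.393% in cluster 2 (27.1% of the cells, 0.161% and 1.40%) and 0.272% in cluster 3 (26.1% of the cells, 0.122% and 0.537%). Cells with a share over 1% made up 39.2% (32.3% to 46.4%) of cluster 1, 34.8% (26.07% to 44.4%) of cluster 2 and 15.7% (9.45% to 24.002%) of cluster 3. The interval of cluster 3 lies below those of both others. The labels name no separate cultures and the cells were not treated as replicates, so this compares these cells only. Their median depths in the rest of the table were 3927, 5418 and 4155 fragments, and the part of depth in the difference from cluster 2 was not tested.

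With 4 clusters, a setting listed as an alternative, the difference was larger and lay in a single cluster. Cluster 1 of 4 (28.02% of the cells) had a median locus share of 1.78%, with quartiles of 0.517% and 3.45%. Clusters 2, 3 and 4 (27.8%, 23.4% and 20.8% of the cells) had 0.242%, 0.233% and 0.256%. Of cluster 1, 64.7% (55.2% to 73.3%) had a share over 1%, and of the others 23.5% (16.1% to 32.3%), 12.4% (6.56% to 20.6%) and 20.9% (12.9% to 31.05%). It drew 79 cells from cluster 1 of the 3, 27 from cluster 2 and 10 from cluster 3. It was also the shallowest, with a median of 2664 fragments in the rest of the table against 5586, 4236 and 7023.

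The difference was present within every set by depth as well. In the 4 sets by depth from shallow to deep, cluster 1 of 4 had median shares of 1.32% (59 cells), 2.896% (36 cells), 2.21% (16 cells) and 3.43% (5 cells). Every other cluster lay between 0.144% and 0.362% in every set, over 10 to 43 cells. The chromosome 2 regions were also higher in cluster 1, with a median of 3.63% against 1.27%, 0.766% and 0.861%, while the chromosome 1 region had 2.19% against 2.06%, 2.41% and 1.64%.

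A further check, added after seeing the data, left out regions of high signal or with a Spearman correlation of at least 0.3 with the locus share. There were 76 of these, some on chromosomes already kept out of clustering, so the regions used fell from 18338 to 18276. Clustered on the remaining 18276 regions into 4, cells were grouped nearly as before (adjusted Rand index 0.921, where 1 is an identical grouping), and the highest cluster median was 1.78% (110 cells) against 0.237% to 0.243% in the others. With each cell also thinned to 1500 open regions, 59 cells with fewer were left out, and the grouping of the others was less like the first (adjusted Rand index 0.676). A cluster of 52 cells, 14.6% of those kept, had a median share of 2.32% and 78.8% of its cells over 1%. The other 3 clusters had 0.315%, 0.295% and 0.243%. This last cluster had a median depth of 3720 fragments in the rest of the table, and the others had 5599, 6217 and 4155. On the chromosomes kept out of clustering, the part of signal in widely open regions was 7.60% in cluster 1 of 4 and 7.41%, 7.51% and 6.81% in clusters 2, 3 and 4.

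**Figure D5:**
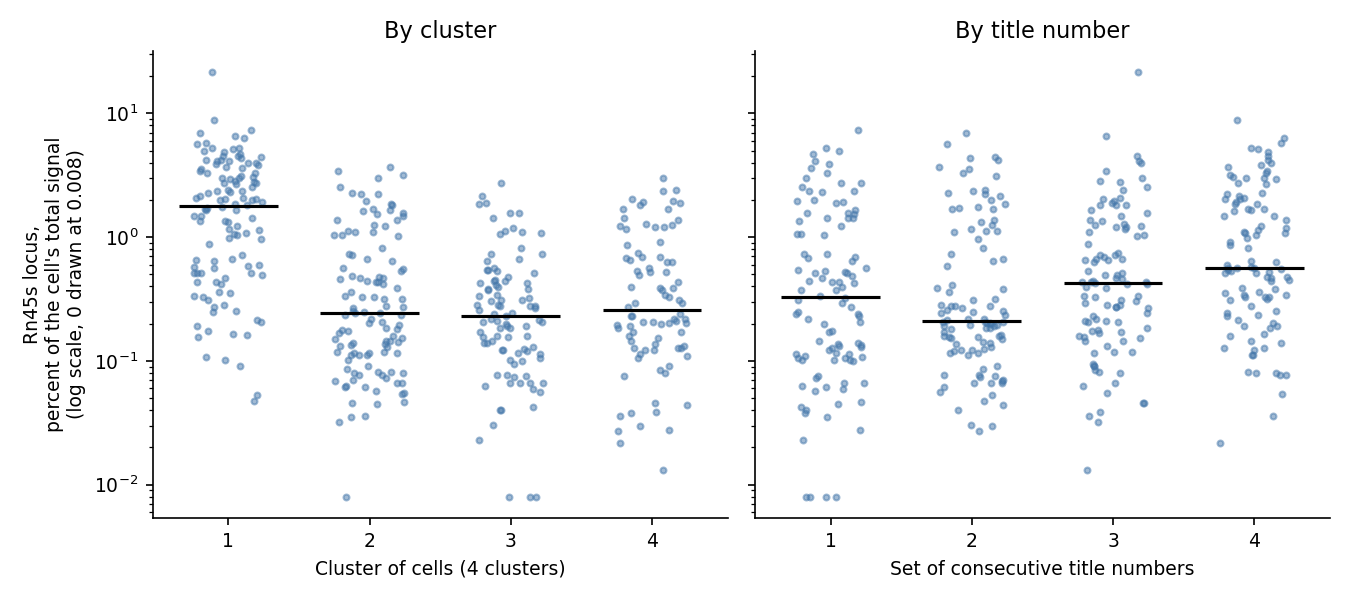
Locus share of the cell's total signal (vertical axis, log scale, 0 drawn at 0.008) in the 4 clusters of cells made without chromosomes 1, 2, 17 and X (left) and in 4 sets of consecutive title numbers (right); points are cells and bars are medians. Cluster 1 has a median of 1.78% against 0.233% to 0.256% in the others, and the title sets run from 0.211% to 0.567%.

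The share also differed along the numbers in the cells' titles, whose meaning the labels do not give. In sets of consecutive numbers from low to high, the median was 0.330%, 0.211%, 0.429% and 0.567%, each over about 25% of the cells. All 4 cells without locus signal were in the lowest set. Cells over 1% made up 29.8% (21.2% to 39.6%), 25.96% (17.9% to 35.5%), 30.8% (22.1% to 40.6%) and 41.7% (32.1% to 51.9%), and these intervals overlap. Median depth in the rest of the table was 4120, 4317, 4703 and 4211 fragments. The chromosome 2 regions had medians of 0.918%, 0.708%, 2.099% and 2.02% in these sets, while the chromosome 1 region had 2.18%, 2.19%, 2.197% and 1.93%. Within the sets, the correlation of the locus share with chromosome 2 was 0.734, 0.617, 0.592 and 0.685. Cluster 3 of 3, the lowest for the locus, had 38 and 40 cells in the lower 2 sets and 15 in each of the higher 2, and within it the median share was 0.237%, 0.202%, 0.282% and 0.472%. In cluster 1 the values were 0.513%, 0.227%, 0.459% and 0.733%, and in cluster 2 they were 0.294%, 0.254%, 0.462% and 0.751%. The set of highest title numbers thus had the highest median within each of the 3 clusters. The title sets were not compared within the 4 clusters, where most of the difference in locus share lay in cluster 1. The part of that cluster in the differences between title sets was not tested.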

How the data were processed

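Single-cell ATAC-seq values of 415 cells were analysed, each cell a sample of the same group. The authors deposited 1 table of signal per region and cell. Per the submitters' processing notes the tool MACS2, a peak caller, and build mm9 were used; for the aligner and the treatment of duplicates the sources used here give nothing. Of the deposited values above 0, 51.1% are whole multiples of 74 and 37.6% equal 148. In the first and second member this holds for 11.1% and 26.1% at multiples of 74, so fragments are not whole numbers there. Signal takes no count test, and with 1 sample no test was made.

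Members, lists and settings were chosen with earlier results of these data known. Named are both members, the regions of the rule, the nearest region on each side and the 5 regions of highest Spearman correlation with the locus share among those with signal in at least 50% of cells. Clusters used term frequency times inverse document frequency (scale 10000), singular value components 2 to 10 and k-means with 50 starts. No doublet caller was run. Scripts were tested on simulated data. Python 3.11.15, numpy 2.4.6, scipy 1.17.1 and scikit-learn 1.9.0 were used. Alternatives changed the denominator, the cells kept, the threshold for signal, the members summed, the clusters and the likeness filter.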

Additional observations from a re-analysis of the deposited data

How the results depend on the processing

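The share of cells with locus signal was 96.9% when more than 1 fragment was required. The median locus level was 12.6 fragments with the first member alone, 5 after thinning and 25.5 in the 44.1% of cells that reached 5000 fragments, and the median share was 0.281% with the first member alone. The correlation of locus fragments with depth was 0.107 in the deeper cells. The ratio of the highest to the lowest cluster median was 1.78 with 3 clusters and 7.65 with 4. Chosen after seeing the data, 4 clusters without alike regions gave 7.50 and with thinning 9.54. Of the 5 most alike regions, 3 were among the first 5 when regions with signal in 25% of cells were allowed, where regions on chromosome 16 from 11144011 to 11144389 (0.686) and from 57391290 to 57391788 (0.636) came in. The lowest correlation with chromosome 2, 0.698 over all cells, was 0.592 within title sets, 0.525 within 3 clusters and 0.430 within 4. The highest correlation of locus fragments with depth, 0.255 over all cells, was 0.406 within 3 clusters and 0.545 within 4. These within-set values were also added after seeing the data. The cause of these shifts was not tested beyond the members, cells or clusters that each setting takes. The other 41 recomputed values stayed within the interval of the main value, within 0.1 for a correlation or slope, or within 1.5 times for a ratio. No paired analysis was possible because there is 1 group. Depth limits the share in shallow cells, where 1 fragment is a large step.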

Other observations

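In the 44.1% of cells with at least 5000 fragments, with no filter on how many cells held signal, 27 of the 23178 other regions had a Spearman correlation of at least 0.4 with the locus share, and the median was -0.0184. The highest was the chromosome 3 region from 5860383 to 5860771 (0.767). It was followed by 2 regions on chromosome 16, from 57391290 to 57391788 (0.722) and from 11144011 to 11144389 (0.720), and by 1 on chromosome 11 from 108872960 to 108873357 (0.719). These last 3 hold signal in 34.2%, 40% and 29.6% of all cells. Several of the 27 lie near each other: the chromosome 9 regions from 3000065 to 3004707 (0.603), from 3005535 to 3016586 (0.515), from 3017453 to 3026406 (0.663) and from 3028775 to 3038207 (0.577), and the chromosome 8 regions from 19759658 to 19761265 (0.527) and from 19762871 to 19764033 (0.521). A single region of chromosome 17, from 71313005 to 71313226 (0.559), was among the first 25. These regions were named after their values were seen.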
